A study of Equus caballus with 12 samples.

Results

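The proteasome is the protease complex that degrades proteins tagged with ubiquitin. Its 20S core is a stack of rings, with outer alpha rings that gate the entrance and inner beta rings that hold the protease sites, and a 19S cap made of a base and a lid binds ubiquitin chains, removes them and feeds the unfolded protein into the core. The COP9 signalosome is a related complex, built much like the 19S lid, which takes the small protein NEDD8 off cullins, the scaffolds of a large class of ubiquitin ligases. In oocytes, the proteasome is known for the degradation of cyclin B and securin at the meiotic divisions, at a time when transcription is almost silent and messenger RNA levels depend mainly on stored transcripts.

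The genes described here were those whose name starts with PSMA to PSMG, or with COPS and a digit, and is paired with an Ensembl identifier in the gene tables supplied with the study. These were 16 of 11425 genes, 15 of the proteasome and 1 of the signalosome. The alpha ring was covered by PSMA1, PSMA2, PSMA5 and PSMA7 (4 of 8 listed genes), the beta ring by PSMB1 and PSMB7 (2 of 7), the ATPases of the 19S base by PSMC1 and PSMC4 (2 of 6) and the other base subunits by PSMD1 and PSMD4 (2 of 4). Of the lid, PSMD3, PSMD7 and PSMD12 were covered (3 of 9), and of the assembly chaperones PSMD9 (1 of 4, base) and PSMG4 (1 of 5, core). COPS2 stood for the signalosome (1 of 10). None of the 4 listed immunoproteasome and thymoproteasome subunits and none of the 5 listed activators and inhibitors carried a name here, and COPS3 and PSMD11 were named without an identifier, so these genes were not analysed here. The naming tables, as held here, were in order of fold change from the lowest upward and shortened, for the comparisons of vitrified with fresh oocytes only. Of the 16 genes, 10 were named in the VIM vs. FR table and 10 in the VMAT vs. FR table, 4 of them (PSMA1, PSMD7, PSMD9 and PSMG4) in both. The choice of genes therefore favours values below fresh oocytes, and counts by direction and medians over the 16 genes are given as descriptions of the genes chosen.

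Pools of horse oocytes (Equus caballus), averaging 23 oocytes, were sequenced in 3 groups. In VIM (VGV in the sample labels, 4 samples), immature oocytes still inside their corona radiata cells were vitrified, warmed and then matured in vitro. VMAT oocytes (3 samples) were matured first and stripped of cumulus cells, then vitrified and warmed, whereas FR oocytes (5 samples) were matured without any vitrification. All groups were matured in medium with follicle-stimulating and luteinizing hormone. Before storage for RNA extraction, all oocytes were denuded, and only those with a polar body and an intact membrane were kept. Age and breed of the mares were not given in the sources used here. The labels do not say whether samples of a group came from separate collections, so p-values measure only the spread between these samples, which may be technical.

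The samples held between 1636620 and 12166950 reads on genes. VMAT replicate 2 stood apart, with 12166950 reads, 9504 genes above 0 (5470 to 7637 in the other samples) and at least 598 reads of each of the 16 genes, so VMAT results are also given without it. Values are normalized counts, that is, reads divided by 1 size factor per sample, and the smallest amount counted as detectable, 3 reads, came to between 0.376 (VMAT replicate 2) and 9.34 (VMAT replicate 1) on this scale. This floor covers counting error only. Levels are compared between samples, not between genes. Of 13 listed oocyte genes, 10 had an identifier here. DPPA3 (4501 to 16505), BTG4 (3177 to 8872), GDF9, ZP4 and H1-8 were above 30 reads in all 12 samples, and FIGLA, in 6 samples, was the least often so. Of these 10 genes, 9 had a log2 fold change below 0 in VIM vs. FR (median -0.53, against -0.12 over all genes tested). In VMAT vs. FR 6 did (median -0.37, against 0.01). Their names came from the same shortened tables, which favour values below fresh oocytes, so these counts describe the genes named. Of the 10, 0 were DE with limma or had an unadjusted limma p under 0.05, nor were any DE with edgeR or DESeq2. ZAR1 was at 3.11 to 33.4 in VMAT, below its 115 to 252 in FR without overlap, and at 4.82 to 337 in VIM. Of all 8305 genes tested in VMAT vs. FR, 1.23% were lower in VMAT without overlap. HAS2, a cumulus cell gene and the single one of 12 listed cumulus markers with an identifier here, was at 641 to 2144 in VIM, 254 to 1755 in VMAT and 462 to 1239 in FR, and the part of cumulus cell RNA in the results was not tested.

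Most of the 16 genes had clear reads somewhere, but many were read in some pools and nearly missing from others of the same group. Among the 192 values (16 genes in 12 samples), 143 were over 30 reads, 26 were at 4 to 30 reads and 23 at 3 reads or fewer. PSMA5, PSMA7, PSMC1, PSMD1, PSMD7 and PSMD9 were above 30 reads in all 12 samples, and PSMA2 and PSMD12 in 11. Beside these 6 of 16 genes, 6.43% of all 11425 genes were above 30 reads in all 12 samples. The share was 8.15% of the 9021 genes above 30 reads in at least 1 sample. Uneven reading between samples was thus common in the whole data. The other 8 genes were above 30 reads in 4 (PSMB7) to 9 (PSMB1) samples. Fewer oocytes with a transcript and less transcript per oocyte cannot be told apart in pools.

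**Figure D1:**
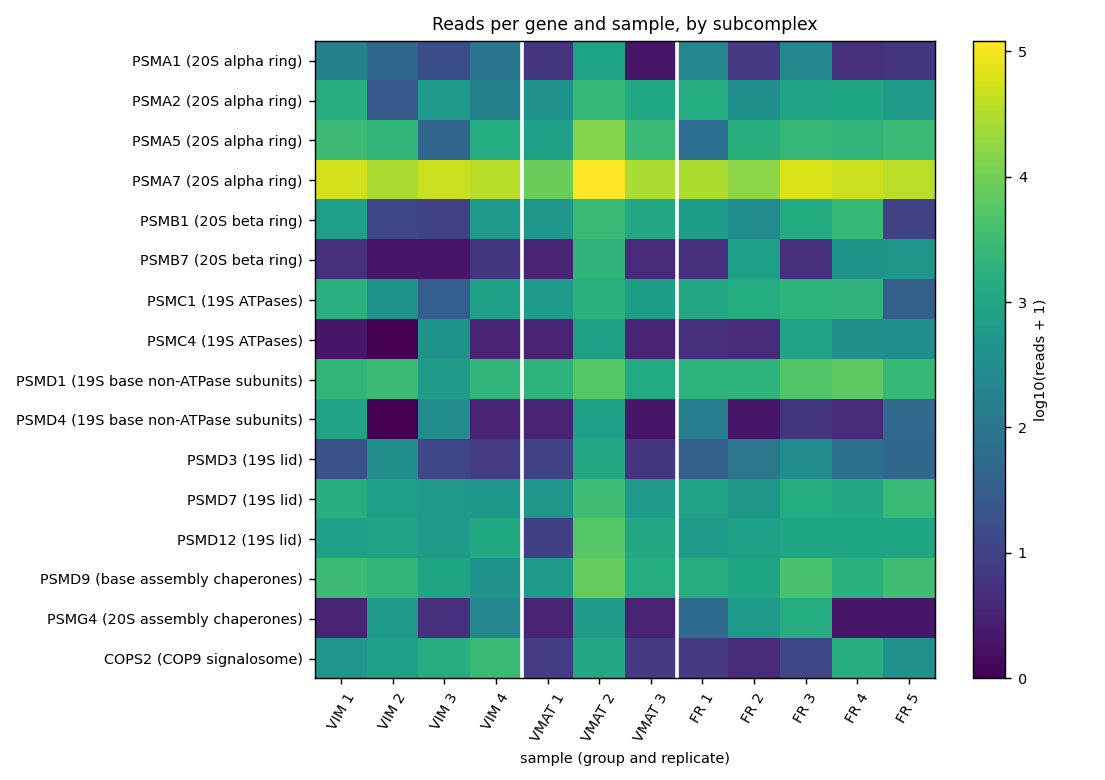
Reads of each gene (rows, grouped by subcomplex) in each sample (columns, by group and replicate, with white lines between groups), as log10 of the reads plus 1. VMAT replicate 2 has at least 598 reads of every gene, whereas PSMC4, PSMD4 and PSMG4 alternate between few and many reads within each group. PSMB7 does so in VMAT and FR and has at most 5 reads in VIM.

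The number of the 16 genes above 30 reads was 12, 11, 11 and 12 in VIM, 8, 16 and 9 in VMAT and 13, 12, 13, 13 and 13 in FR. The 16 was that of VMAT replicate 2, and the 8 that of the sample with the fewest reads, VMAT replicate 1. Of all genes above 30 reads in at least 1 sample, 70.6% were so in VMAT replicate 2 and 23.8% in VMAT replicate 1. With the reads of every sample scaled to 1636620 in total, the numbers were 12, 11, 9 and 12 in VIM, 8, 16 and 9 in VMAT and 12, 12, 13, 12 and 10 in FR, so VMAT replicate 2 still had the most.

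**Figure D2:**
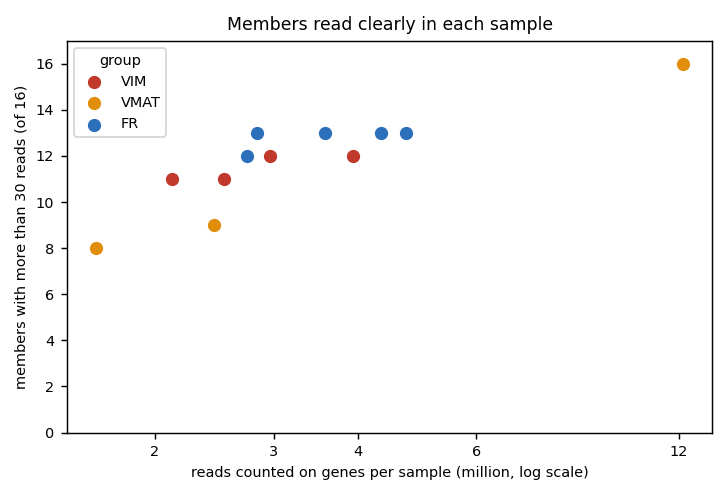
Number of the 16 genes with more than 30 reads (vertical axis) against the reads counted on genes in each sample (horizontal axis, log scale), with 1 point per sample, colored by group. The VMAT samples lie at 8, 9 and 16, and VIM and FR between 11 and 13.

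PSMA7, a subunit of the alpha ring, was the steadiest of the 16 genes. In VIM, PSMA7 (ENSECAG00000014168) was at 32986, 44261, 57027 and 33905, and in VMAT at 27558, 15129.9 and 31943. FR samples held it at 30708, 18231, 36316, 24206 and 25536. All VIM samples exceeded all VMAT samples, and VIM overlapped FR through FR replicate 3. The VIM mean was 42045 ± 11220 (SD, n = 4), the VMAT mean 24877 ± 8721 (SD, n = 3) and the FR mean 26999 ± 6845 (SD, n = 5). The SD of its log2 values within groups was 0.425, against a median of 2.15 over the 16 genes.

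The other alpha ring genes differed more within groups than between them. PSMA5 (ENSECAG00000011835) was at 1843, 3540.3, 55.4 and 1393 in VIM, at 2493, 1736 and 3438 in VMAT and at 77.6, 1819, 1381, 1047 and 2071 in FR. Low samples occurred once in VIM and once in FR, with 46 and 72 reads. PSMA2 (ENSECAG00000020597) was at 907, 40.7, 689 and 170.1 in VIM, at 1229, 307 and 1339 in VMAT and at 1529.9, 390.1, 520.1, 521 and 447 in FR, with VIM replicate 2 lowest at 25 reads. PSMA1 (ENSECAG00000024086) was at 106, 81.5, 19.3 and 97.8 in VIM, at 15.6, 112 and 1.18 in VMAT and at 229, 6.86, 123, 2.02 and 3.58 in FR. Here 3 VIM samples, 1 VMAT sample and 2 FR samples were above 30 reads, and FR spanned the whole VIM range.

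Of the beta ring, PSMB7 encodes the subunit with the trypsin-like protease site and PSMB1 a subunit without a protease site of its own. PSMB7 (ENSECAG00000023415) was at 2.46, 1.63, 1.21 and 4.89 in VIM, at 6.22, 249 and 3.54 in VMAT and at 4.31, 858, 2.24, 210.4 and 351 in FR. No VIM sample had more than 5 reads of it, whereas 3 FR samples had 417 to 750 reads and the other two 4 reads each, so the groups overlapped. PSMB1 (ENSECAG00000021637) was at 478, 17.9, 10.8 and 560.3 in VIM, at 1525, 349 and 1398 in VMAT and at 729, 324, 745, 1291 and 6.44 in FR. All VMAT samples were well read, while a pair of VIM samples and FR replicate 5 had 9 to 11 reads.

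The ATPases PSMC1 and PSMC4 belong to the ring of the 19S base that unfolds substrates. PSMC1 (ENSECAG00000003601) was at 1049.7, 704, 38.6 and 787 in VIM, at 1948, 218 and 782 in VMAT and at 1236, 1576, 1098, 1001 and 23.6 in FR, and VIM replicate 3 and FR replicate 5 were the low samples. PSMC4 (ENSECAG00000014779) was at 0.614, 0, 503 and 1.96 in VIM, at 6.22, 98.6 and 2.36 in VMAT and at 4.31, 3.43, 474, 174 and 218 in FR. A single VIM sample, a single VMAT sample and 3 FR samples had more than 30 reads of PSMC4. The 0 in VIM replicate 2 allows a normalized count of up to 4.89.

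PSMD1, the large scaffold of the base, and PSMD4, a receptor for ubiquitin chains, behaved differently. PSMD1 (ENSECAG00000007845) was at 1328, 4735, 724 and 2162 in VIM, at 5940.5, 684 and 1541 in VMAT and at 2085, 2235, 2775, 3301 and 1809 in FR, with at least 601 reads in every sample. The FR values lay inside the range of VIM and that of VMAT. PSMD4 (ENSECAG00000028544) was at 570.3, 0, 337 and 1.96 in VIM, at 6.22, 94.2 and 1.18 in VMAT and at 157, 1.14, 2.8, 1.51 and 38.7 in FR. A pair of VIM samples, VMAT replicate 2 and a pair of FR samples had more than 30 reads, and the 0 in VIM replicate 2 again allows up to 4.89.

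In the lid, PSMD7 is the partner of the deubiquitinase subunit, and PSMD3 and PSMD12 are structural subunits. PSMD7 (ENSECAG00000020408) was at 974, 1178, 663 and 497 in VIM, at 1556, 409 and 628 in VMAT and at 934, 571, 797, 583 and 1926 in FR, a narrow range with an SD of log2 values of 0.738 within groups. PSMD12 (ENSECAG00000012224) was at 495, 1349.6, 686 and 1178 in VIM, at 24.9, 697 and 1397 in VMAT and at 704, 919.7, 563, 518 and 690.1 in FR, where VMAT replicate 1, with 8 reads, was the lone low sample. PSMD3 (ENSECAG00000010572) was at 10.4, 528, 13.3 and 6.84 in VIM, at 28, 148 and 5.9 in VMAT and at 35.6, 116, 160.1, 37.3 and 36.5 in FR. All FR samples but only VIM replicate 2 and VMAT replicate 2 had more than 30 reads of PSMD3.

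PSMD9 and PSMG4 encode assembly chaperones, PSMD9 for the 19S base and PSMG4 for the alpha ring of the core. PSMD9 (ENSECAG00000020230) was at 1913, 3385, 1186 and 384 in VIM, at 1808, 959 and 1677 in VMAT and at 1574, 1131, 2338, 886 and 2339 in FR, with at least 393 reads in every sample. PSMG4 (ENSECAG00000013813) was at 1.23, 921, 4.82 and 219 in VIM, at 6.22, 74.9 and 2.36 in VMAT and at 62.5, 684, 780.4, 0.505 and 0.716 in FR. Both VIM and FR thus held samples with 4 reads or fewer beside samples with 224 reads or more, and the SD of log2 values of PSMG4 within groups, 3.96, was the highest of the 16 genes.

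COPS2 encodes the signalosome subunit that contacts the cullin. Its normalized count (ENSECAG00000024709) was 289, 1252, 1783 and 2579 in VIM, 21.8, 146 and 7.07 in VMAT and 6.47, 3.43, 6.16, 781 and 269.9 in FR. All 4 VIM samples had 470 reads or more, whereas 1 VMAT sample and 2 FR samples were above 30 reads. VIM lay above VMAT without overlap and overlapped FR through FR replicate 4. The VIM mean was 1476 ± 961 (SD, n = 4), the VMAT mean 58.4 ± 76.5 (SD, n = 3) and the FR mean 213 ± 338 (SD, n = 5).

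**Figure D3:**
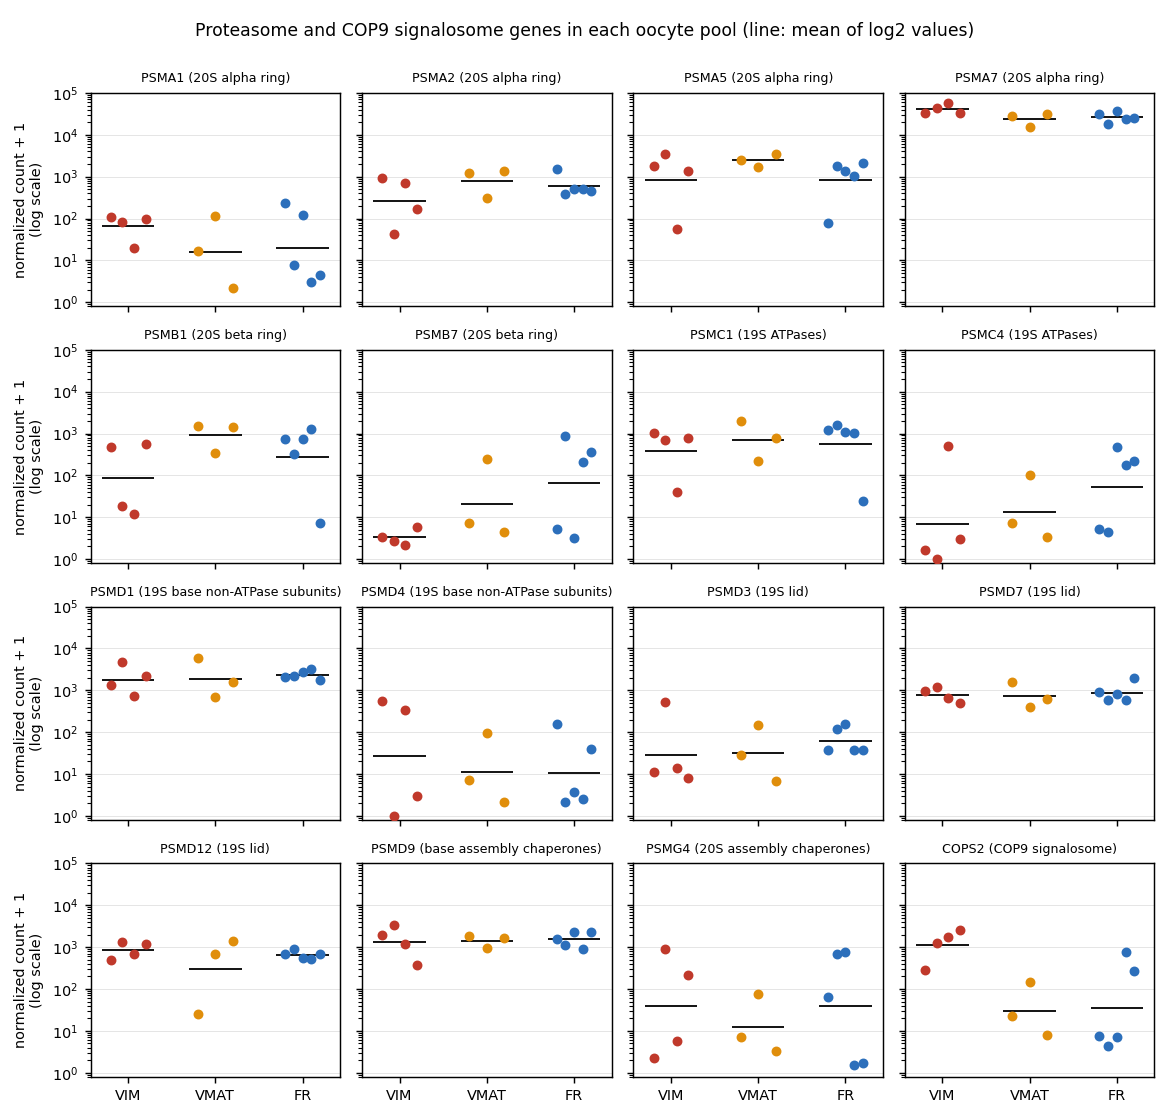
Normalized count plus 1 (log scale) of each of the 16 genes in every sample, with 1 panel per gene, samples of a group in replicate order and a line at the mean of the log2 values. COPS2 in VIM lies above all VMAT samples, PSMB7 in VIM lies at 1.21 to 4.89 before the 1 is added, and PSMA7 is within 15129.9 to 57027 in all samples.

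VIM vs. FR addresses vitrification before maturation. With limma, COPS2 had the largest fold change of the 16 genes, with higher values in VIM, and PSMB7 the largest in the other direction, and neither passed the limma test across all genes. With DESeq2 and edgeR the fold change of PSMB7 was larger in size than that of COPS2. Genes were tested when above 0 in at least 4 samples, with limma on log2 of the normalized count plus 1, and DE meant a p of at most 0.05 after Benjamini-Hochberg adjustment together with a log2 fold change of 1 or more in either direction. With limma, 0 of the 16 genes were DE, beside 0% of all 7351 genes tested, and with edgeR on the recovered reads 0 were DE, also beside 0%. An unadjusted limma p under 0.05 was found for 2 of the 16 genes (PSMA7 and COPS2), beside 3.78% of all genes. DESeq2 on the recovered reads called 1 of them (PSMB7), beside 10.3% of 4931 genes.

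For COPS2, the log2 fold change in VIM vs. FR was 5.03 (standard error 1.59), with a limma p of 0.0043 and an adjusted p of 0.902. In an exact two-sided permutation test of COPS2 alone, p was 0.0317, not adjusted for the number of genes. The smallest p these groups allow is 0.0159, and VIM and FR overlapped. By DESeq2 the log2 fold change of COPS2 was 2.79 (adjusted p = 0.121) and by edgeR 2.58 (adjusted p = 0.281). PSMA7, given here after its values were seen, had a log2 fold change of 0.64 with a standard error of 0.196 (limma p = 0.00332, adjusted p = 0.902, exact two-sided permutation p = 0.0476). It was 0.48 without VIM replicate 3 and 0.76 without FR replicate 3. PSMB7 had a log2 fold change of -4.29 with a standard error of 2.31 (limma adjusted p = 0.902, exact two-sided permutation p = 0.0794). Neither p was under 0.05, and the groups overlapped. DESeq2 gave PSMB7 -6.83 (adjusted p = 0.00108) and edgeR -6.77 (adjusted p = 0.281).

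A log2 fold change of 1 or more in either direction was found for 8 of the 16 genes in VIM vs. FR, beside 54.6% of all genes. Above FR were COPS2, PSMA1 (1.71, standard error 2.05) and PSMD4 (1.39, standard error 2.48). Below FR were PSMB7, PSMC4 (-2.93, standard error 2.42), PSMB1 (-1.66, standard error 1.64), PSMA2 (-1.20, standard error 1.05) and PSMD3 (-1.13, standard error 1.91). PSMD4 turned to -0.072 without VIM replicate 1, and PSMD3 to 0.56 with edgeR and 0.89 with DESeq2. Leaving out single samples moved PSMA2 to -0.32 (VIM replicate 2), PSMB1 to -0.70 (VIM replicate 3) or -2.97 (FR replicate 5) and PSMC4 to -4.98 (VIM replicate 3). It also moved PSMD3 to -2.54 (VIM replicate 2) or -0.51 (VIM replicate 4), PSMD4 to 2.98 (VIM replicate 2) and PSMA1 to 1.03 (FR replicate 4) or 2.59 (FR replicate 1). With edgeR, PSMA1 was at 0.038, and with DESeq2 PSMC4 was at -0.48. The other 8 genes, PSMA7 among them, were between -0.51 and 0.64. The median log2 fold change of the 16 genes was -0.18, against -0.12 over all genes tested, and the groups of 0 of them were apart, beside 0.952% of all genes higher and 0.639% lower in VIM without overlap.

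VMAT vs. FR addresses vitrification after maturation. PSMB1 and PSMA5 had the largest positive log2 fold changes of the 16 genes, and PSMC4, PSMB7 and PSMG4 the largest negative ones, each within 2 standard errors of 0. With limma, 0 of the 16 genes were DE (0% of all 8305 genes tested) and 0 had an unadjusted p under 0.05 (3.62% of all genes). DESeq2 called 0 of them, beside 6.99% of 5104 genes, and edgeR 0, beside 0.012% of all genes. The smallest unadjusted limma p among the 16 genes was 0.113, that of PSMA5. Fold changes of that size were found for 7 of the 16 genes, beside 55.9% of all genes.

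PSMB1 had a log2 fold change of 1.70 (standard error 1.36) in VMAT vs. FR, and 0.39 without FR replicate 5. For PSMA5 the log2 fold change was 1.54 (standard error 0.95), and 0.69 without FR replicate 1, which held it at 77.6. Below FR were PSMC4 (-1.99, standard error 2.34), PSMB7 (-1.67, standard error 2.30), PSMG4 (-1.66, standard error 2.54), PSMD12 (-1.18, standard error 1.21) and PSMD3 (-1.02, standard error 2.03). Without VMAT replicate 2, which had the only VMAT values above 30 reads of PSMB7, PSMC4, PSMD3 and PSMG4, these were -3.43 for PSMC4, -3.49 for PSMB7, -2.98 for PSMG4, -1.81 for PSMD12 and -2.15 for PSMD3, and none was DE. PSMD12 turned to 0.57 without VMAT replicate 1, the sample with 8 reads, and PSMD3 to 0.064 without VMAT replicate 3. Without VMAT replicate 3, PSMB7 was at -0.60, PSMC4 at -0.99 and PSMD12 at -2.31, and without FR replicate 3 PSMG4 was at -0.58. The other 9 genes were between -0.37 and 0.43, with COPS2 at -0.21 (standard error 2.34) and PSMA7 at -0.15 (standard error 0.324). PSMA7 was at 0.17 without VMAT replicate 2. The median of the 16 genes was -0.22, against 0.01 over all genes tested, and -0.59 without VMAT replicate 2.

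VIM vs. VMAT addresses the stage at which oocytes were vitrified. COPS2 and PSMA7 were higher in every VIM sample than in every VMAT sample, and PSMB1 had its largest fold change here, with lower values in VIM. With limma, 0 of the 16 genes were DE (0% of all 7627 genes tested), and 3 had an unadjusted p under 0.05 (COPS2, PSMA7 and PSMB1), beside 2.98% of all genes. DESeq2 called 1 of them (COPS2), beside 7.21% of 4159 genes, and edgeR 0, beside 0.0131% of all genes. Groups without overlap were found for 2 of the 16 genes with VIM higher, beside 1.72% of all genes, and for 0 with VIM lower, beside 2.78%. COPS2 and PSMA7 were named only in the VMAT vs. FR table, and PSMB1 only in the VIM vs. FR table. The choice of genes thus favours low VMAT values for COPS2 and PSMA7 and low VIM values for PSMB1. These counts describe the genes chosen and are no result about the proteasome or signalosome.

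COPS2 in VIM vs. VMAT reached a log2 fold change of 5.24 with a standard error of 1.63, and across all genes its limma p was 0.00163 before and 0.967 after adjustment. In the exact two-sided permutation test it had p = 0.0571, the smallest p that these groups allow, so this test could not reach 0.05. DESeq2 gave a log2 fold change of 4.74 (adjusted p = 0.00149) and edgeR 4.16 (adjusted p = 0.452). Without VMAT replicate 2, the log2 fold change of COPS2 was 6.39. For PSMA7 it was 0.79 with a standard error of 0.341 (limma p = 0.0222, adjusted p = 0.967, exact two-sided permutation p = 0.0571), and 0.47 without VMAT replicate 2.

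PSMB1 had a log2 fold change of -3.36 (standard error 1.65) in VIM vs. VMAT, and its limma p was 0.0433 before and 0.967 after adjustment. In the exact two-sided permutation test its p was 0.171, since the better-read VIM samples, at 478 and 560.3, were above VMAT replicate 2 at 349. Without VMAT replicate 2, PSMB1 was at -4.05. Fold changes of that size were found for 9 of the 16 genes, beside 57.6% of all genes. Beside COPS2, those above VMAT were PSMA1 (2.02, standard error 2.56), PSMG4 (1.72, standard error 2.78), PSMD12 (1.55, standard error 1.31) and PSMD4 (1.26, standard error 2.88). Beside PSMB1, those below were PSMB7 (-2.61, standard error 2.63), PSMA2 (-1.62, standard error 1.40) and PSMA5 (-1.54, standard error 1.02).

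Several of these VIM vs. VMAT values depended on a single sample. Without VMAT replicate 2, PSMA1 was at 3.43, PSMG4 at 3.03, PSMD12 at 2.17, PSMD4 at 2.79, PSMB7 at -0.80, PSMA2 at -2.31 and PSMA5 at -1.79, and none was DE. PSMD4 turned to -0.19 without VIM replicate 1, and PSMD12 to -0.20 without VMAT replicate 1. Other samples moved the values toward 0, with PSMG4 at 0.21 and PSMA2 at -0.75 without VIM replicate 2, PSMA5 at -0.24 without VIM replicate 3 and PSMA1 at 0.58 without VMAT replicate 3. The other 7 genes, PSMA7 among them, were between -0.94 and 0.79. The median of the 16 genes was -0.09, against -0.08 over all genes tested, and 0.07 without VMAT replicate 2.

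**Figure D4:**
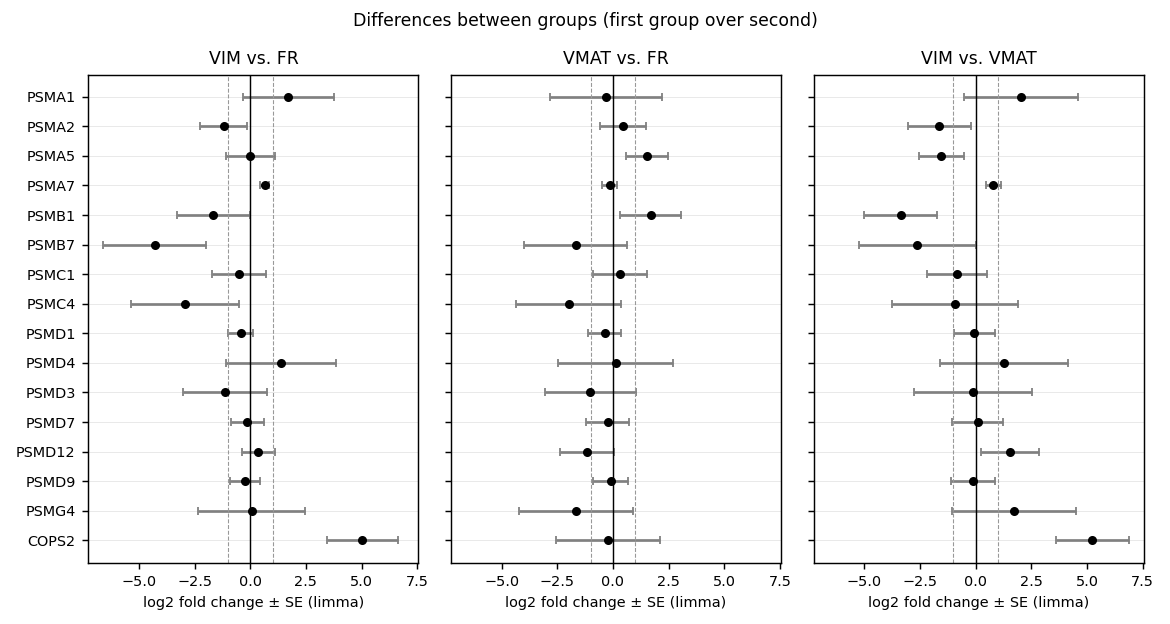
Log2 fold change (first group over second) with its standard error from limma for each of the 16 genes, in 1 panel per comparison, with dashed lines at -1 and 1. COPS2 is at 5.03 in VIM vs. FR and 5.24 in VIM vs. VMAT, and 0 genes were DE in any panel.

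PSMD1, PSMD7 and PSMD9 combined reads in every sample with small differences in all comparisons. Their within-group SD of log2 values was 1.02, 0.738 and 0.905. The median of this SD was 2.15 over the 16 genes, 2.16 over all genes above 0 in any sample and 2.67 over the 3530 genes with a mean normalized count of at least 100, among which were 14 of the 16. The subunits of a subcomplex were not alike in this respect. PSMD7 of the lid had 0.738, PSMD12 1.52 and PSMD3 2.06, and the core held both the lowest value, that of PSMA7, and high ones, such as 2.90 for PSMB7.

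Pairs of the 16 genes were correlated across samples about as often as other pairs of genes. Spearman's rho of normalized counts over the 12 samples, given as a description since all genes share the samples and their size factors, had a median of -0.04 over the 120 pairs of the 16 genes and of 0.01 over pairs of genes with a mean of at least 100. A rho of at least 0.5 was found for 5.83% of the pairs, against 5.92% of those gene pairs. The highest rho was that of the lid subunit PSMD7 with the base chaperone PSMD9 (0.85), and the lowest that of PSMA7 with PSMB7 (-0.92). Both are the extremes of 120 pairs. PSMB7 was above 30 reads in only 4 samples, so its other ranks rest on values near the floor.

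The summed normalized counts of the 16 genes were 53160 ± 11241 (SD, n = 4) for VIM, 36584 ± 13140 (SD, n = 3) for VMAT and 37471 ± 7154 (SD, n = 5) for FR, of which PSMA7 made up the larger part. The sums lay between 42954 and 63741 in VIM, 21411 and 44172 in VMAT and 28869 and 48081 in FR, so VIM overlapped both other groups. Without PSMA7, the sum over the other 15 of these genes averaged 11115 ± 4679 (SD, n = 4) for VIM, 11707 ± 5186 (SD, n = 3) for VMAT and 10471 ± 865 (SD, n = 5) for FR. FR samples lay between 9368 and 11765, inside the ranges of VIM (6715 to 17736) and VMAT (6281 to 16614). The lowest VMAT sum, with and without PSMA7, was that of VMAT replicate 2. As a share of the reads on genes, VMAT replicate 1 was the lowest in VMAT, at 0.867% against 1.41% in VMAT replicate 2. Without PSMA7 these shares were 0.326% and 0.412%, so the order depends on the scaling.

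Some genes that work next to the proteasome had an identifier here, and their names came from the same shortened tables. UBQLN1, a shuttle receptor that carries ubiquitinated proteins to the proteasome, was at 4457 to 36689 in VIM, 5144 to 59031 in VMAT and 9674 to 28271 in FR. UCHL5, a deubiquitinase bound to the 19S cap, ran from 3.91 to 504 in VIM, 137 to 797 in VMAT and 5.72 to 1747 in FR. UBB, which encodes ubiquitin repeats, was at 778 to 1988 in VIM, 132 to 848 in VMAT and 73.2 to 2631 in FR. RPS27A, which encodes ubiquitin joined to a ribosomal protein, was at 9.64 to 215 in VIM, 9.34 to 419.8 in VMAT and 2.29 to 364 in FR. The groups overlapped for each of these genes, and limma called none of them DE or gave them an unadjusted p under 0.05 in any of the 3 comparisons. Genes such as these and the PSM genes can have near-identical copies in a genome, between which the authors' counting could split reads, so their levels are uncertain.

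Since COPS2 acts on cullins, the cullins and the NEDD8 enzymes bear on the same pathway. Of 11 listed genes of the NEDD8 pathway and cullins, 5 had an identifier here. With limma 0 of these were DE and 0 had an unadjusted p under 0.05 in any of the 3 comparisons, and edgeR and DESeq2 on the recovered reads called 0. CUL1, the scaffold of the SCF ligases, was at 184 to 1210 (median 739) in VIM, 463 to 2094 (median 749) in VMAT and 16.2 to 533 (median 251) in FR. The log2 fold change of CUL1 was 1.82 (standard error 1.19) for VIM against FR and 2.43 (standard error 1.34) for VMAT against FR. CUL5, another cullin, was at 10.8 to 2016, 31.1 to 930 and 10.8 to 1674 in VIM, VMAT and FR. NAE1, a subunit of the enzyme that activates NEDD8, was at 2.46 to 431 in VIM, 1.18 to 25.7 in VMAT and 3.58 to 516 in FR. For NAE1 in VMAT vs. FR, limma gave a log2 fold change of -3.15 with a standard error of 2.18 (adjusted p = 0.95), and no VMAT value exceeded 25.7.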

How the data were processed

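RNA of pooled oocytes was sequenced with a 3' kit with unique molecular identifiers. The authors trimmed the reads (Trim Galore), mapped them to EquCab3.0 (STAR), processed identifiers (UMI-tools), counted with RSEM and divided the counts by DESeq2 size factors. The deposited signal is this normalized count per gene and sample. Within each sample 100.0% of values were whole multiples of a step (tolerance 0.001 reads), so whole reads were recovered for edgeR, DESeq2 and depth. No other sample column was left out (0), and gene positions and sequences were not analysed here.

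Each comparison used its own samples and kept genes with a normalized count above 0 in a minimum of 4 (VIM vs. FR) or 3 samples. Log2 values (pseudocount 1) were fitted in R 4.3.3 by lmFit and trended eBayes of limma 3.58.1, with exact two-sided permutation tests for single genes, 16 in each of the 3 comparisons, whose p-values are unadjusted. Alternatives were edgeR 4.0.16 (quasi-likelihood test), DESeq2 1.42.0, other pseudocounts, filters, scalings and designs, a replicate block and leaving out each sample. Tests were tested on simulated data. Figures were made with Python 3.11.15 and matplotlib 3.10.9.

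The genes and gene lists were chosen with earlier results of these data known. All 16 genes are named with every value. A fold change is printed where its absolute log2 value was at least 1, of genes next to the proteasome up to 3 per list with the highest mean were named (some are not reported here), and PSMA7, chosen after its values were seen, and COPS2 in VMAT vs. FR are printed in addition.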

Additional observations from a re-analysis of the deposited data

Results flagged for a closer look

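For each of the 16 genes, VIM and FR (32 groups of 4 or 5 samples) were searched for a sample whose gap to the nearest other sample took up most of the range of log2 values of its group (Dixon's test). Such a sample was found in 7 groups, where chance gives about 1 in 20 groups, or 1.6, if log2 values are normally distributed, which was not checked. Other genes were not searched, so the number cannot be read as particular to these 16 genes or to these samples. VIM replicate 3 had PSMA1 at 19.3 (others 81.5 to 106) and PSMC1 at 38.6 (others 704 to 1049.7). FR replicate 5 had PSMB1 at 6.44 (others 324 to 1291) and PSMC1 at 23.6 (others 1001 to 1576). FR replicate 1 had PSMA2 at 1529.9 (others 390.1 to 521) and PSMA5 at 77.6 (others 1047 to 2071). VIM replicate 2 had PSMD3 at 528 (others 6.84 to 13.3). VMAT, with 3 samples, was not searched.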

How the results depend on the processing

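The number of DE genes, 0 with limma in each comparison, was 3 for VIM against FR without a filter on low values. With edgeR it was 1 for VMAT against FR and 1 for VIM against VMAT. DESeq2 gave 508 for VIM against FR, 357 for VMAT against FR and 300 for VIM against VMAT. The paper, which used DESeq2 with the same thresholds, reports far fewer DE genes in each comparison. The reason for this difference was not tested. On the recovered reads, DESeq2 called 1 of the 16 genes in VIM vs. FR and 1 in VIM vs. VMAT. It gave neither an unadjusted nor an adjusted p for PSMB7, PSMC4 and PSMD3 in VIM vs. VMAT. The cause was not tested. PSMD3 turned to 0.56 (edgeR) and 0.89 (DESeq2) in VIM vs. FR and to 0.035 (edgeR) in VMAT vs. FR, and PSMD12 to 0.17 (edgeR) and 0.061 (DESeq2) in VMAT vs. FR. When single samples were left out, the log2 fold change ran from -0.072 to 2.98 for PSMD4 in VIM vs. FR. Against FR, in VMAT, it ran from -2.31 to 0.57 for PSMD12, -2.15 to 0.064 for PSMD3 and -0.36 to 0.17 for PSMA7. In VIM vs. VMAT it ran from -0.19 to 2.86 for PSMD4 and -0.20 to 2.67 for PSMD12. Over 27 printed fold changes and 483 alternatives, 11 turned direction and 2 passed the threshold. None was past it with limma, so none could lose it, and values that kept their direction could still move, as PSMA1 in VIM vs. FR did from 1.71 to 0.038 with edgeR.

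The correlation of deviations from group means between samples of the same replicate number was between -0.03 and 0.01 over all genes. The wide spread within groups could hide a shared collection or maturation batch, so whether the numbers mark such batches stays undecided. The paper states that FR and VMAT oocytes were matured together. With the replicate block, limma called 0 genes DE in each of the 3 comparisons. PSMB7, PSMC4, PSMD4 and PSMG4 were at 3 reads or fewer in 4 to 6 samples, and a difference of a few reads near that floor is not detectable. PSMB7 had 750 reads in FR replicate 2 (2740837 reads on genes) and 4 reads in FR replicate 3 (4331042 reads on genes). The part of depth in such values was not tested.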
